A study of Homo sapiens with 2 samples.

Results

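The spots described here are hypoxic spots of human breast cancer xenografts, divided by how much RNA of the inducible heat shock genes HSPA6, HSPA1A and HSPA1B they held. They come from 2 frozen tumor sections of 10 µm, read with Visium, an array of barcoded capture spots that each cover a small region and can hold several cells. The tumors grew from MDA-MB-231, a triple-negative breast cancer line long established from a patient, here carrying a hypoxia fate-mapping reporter; they were untreated and were taken on day 18 after implantation. The labels give both tumors the same condition and do not say whether they came from separate mice. The spread between these 2 sections may therefore be technical. The p-values rest on how far differences between spot groups varied between the 2 sections, pooled over genes. A gene's own variation between the sections has little or no weight in its p-value. The fluorescence images of the reporter were not used here.

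Spots were chosen by their own RNA counts. Of 5382 spots over tissue, 4754 had at least 2000 UMIs (unique molecular identifiers, each counting 1 captured RNA molecule). A hypoxia level, H, was the number of UMIs of 8 hypoxia genes (NDRG1, BNIP3, CA9, SLC2A1, P4HA1, ADM, EGLN3, ANKRD37) per 10000 UMIs, averaged over a spot and its adjacent spots. The top quartile of H in each tumor held 1188 hypoxic spots, 630 in tumor 1 and 558 in tumor 2. A heat shock level, S, was the number of UMIs of HSPA6, HSPA1A and HSPA1B per 10000 UMIs of the spot. Hypoxic spots in the top tertile of S are called heat-shock-rich (396 spots: 210 in tumor 1 and 186 in tumor 2), and those in the bottom tertile heat-shock-poor (396 spots: 210 and 186). Both groups therefore share tumor, genotype, day and hypoxia class, and differ by construction in S.

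Cells respond to damaged or misfolded proteins by switching on heat shock genes, most of which encode chaperones that hold, refold or hand on client proteins. The transcription factor HSF1 drives this response: it is held inactive in unstressed cells, forms trimers under stress and binds heat shock elements, arrays of the letters GAA in alternating orientation. HSPA6, HSPA1A and HSPA1B encode stress-inducible HSP70 chaperones; HSPA6 is close to silent in most unstressed human cells. Low oxygen acts through a different factor, HIF, which raises genes of glycolysis, pH control and angiogenesis such as those of H.

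Promoter stretches of the 3 rule genes, of DNAJB1 and of 4 listed heat shock genes with an exact match are shown because their letters hold the heat shock element or a near match to it. The stretches below are from RefSeq promoter windows on GRCh38.p14, printed 5′ to 3′ on the gene's strand. Each window spans 250 bases before to 50 bases after an annotated start of a gene, and a gene can have more than 1. For such a gene the window with the most exact matches, or failing that the most near matches, was chosen. Capitals mark matches to GAA, NN, TTC, NN, GAA or its mirror TTC, NN, GAA, NN, TTC, searched on both strands, where N is any base. Matches in HSPA6, CHORDC1, SERPINH1, HSP90AA1 and HSPD1 are exact, and those in HSPA1A, HSPA1B and DNAJB1 have 1 mismatch at a fixed letter. They lie at chr1:161524454-161524490 (HSPA6, plus strand), chr6:31815425-31815461 (HSPA1A, plus), chr6:31827621-31827657 (HSPA1B, plus), chr19:14518425-14518486 (DNAJB1, minus), chr11:90223075-90223121 (CHORDC1, minus), chr11:75562165-75562201 (SERPINH1, plus), chr14:102087108-102087144 (HSP90AA1, minus) and chr2:197500056-197500090 (HSPD1, minus).
HSPA6: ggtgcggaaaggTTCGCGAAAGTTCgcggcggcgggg
HSPA1A: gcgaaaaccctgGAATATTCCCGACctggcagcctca
HSPA1B: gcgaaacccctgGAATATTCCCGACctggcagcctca
DNAJB1: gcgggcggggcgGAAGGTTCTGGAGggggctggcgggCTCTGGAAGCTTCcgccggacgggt
CHORDC1: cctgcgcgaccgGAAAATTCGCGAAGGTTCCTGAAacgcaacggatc
SERPINH1: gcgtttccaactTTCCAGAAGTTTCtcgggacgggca
HSP90AA1: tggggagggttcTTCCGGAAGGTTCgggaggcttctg
HSPD1: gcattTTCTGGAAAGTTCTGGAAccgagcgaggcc

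The exact element was present in 172 of 35116 promoter windows (0.490%), and it was present with at most 1 mismatch in 2190 (6.24%). Of the 26 genes listed as inducible heat shock genes, 23 had a window; 7 of them held an exact match (CHORDC1, DNAJA1, HSP90AA1, HSP90AB1, HSPA8, HSPD1 and SERPINH1) and 17 a match with at most 1 mismatch. Counted by gene, the shares over all 27305 genes with a window were 0.608% and 7.60%. A match describes the letters only, and the factor's binding was not measured. The HSPA1A and HSPA1B windows were identical at 277 of 299 aligned bases (92.6%). These genes are near-identical copies, so reads can be split between them and their single values are uncertain.

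The 3 rule genes defined the groups, so their levels are a description with no test. HSPA6 (ENSG00000173110, GRCh38.p14 chromosome 1, 161524540 to 161526894) stood at 129 and 308 CPM (counts per 1000000 UMIs of the group) in heat-shock-rich spots of tumors 1 and 2, against 8.41 and 9.43 in heat-shock-poor spots. HSPA1A (ENSG00000204389, chromosome 6, 31815543 to 31817942) stood at 261 and 562 in rich spots, against 31.7 and 46.8 in poor spots. HSPA1B (ENSG00000204388, chromosome 6, 31827738 to 31830254) stood at 566 and 1018 in rich spots, against 63.4 and 96.2 in poor spots. All 3 were higher in rich spots of tumor 2 than in those of tumor 1, and HSPA6 had the widest ratio between the groups, 15.3 in tumor 1 and 32.6 in tumor 2. HSPA6 made up 13.5% and 16.3% of the trio's UMIs in rich spots of tumors 1 and 2, against 8.13% and 6.19% in poor spots. In the remaining spots, those below the top quartile of H, the trio lay between the 2 hypoxic groups, with HSPA6 at 31.6 and 30.9 CPM.

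At the scale of a spot the ranking rests on few molecules. The median rich spot held 10 UMIs of the trio in tumor 1 and 21 in tumor 2, against 2 and 2 in poor spots, and 53 and 46 poor spots held none. Median S was 7.63 and 15.8 in rich spots, against 0.884 and 1.45 in poor spots. At the edges of the rule, the first rich spot of tumor 1 had an S of 4.659 and the next spot down 4.649; in tumor 2 these were 9.560 and 9.534. The last poor spot had an S of 2.124 in tumor 1 and the next spot up 2.127, and in tumor 2 these were 3.4925 and 3.4935. For H, the lowest hypoxic spot stood at 25.09 in tumor 1 and 22.23 in tumor 2, and the highest remaining spot at 25.07 and 22.19.

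**Figure D1:**
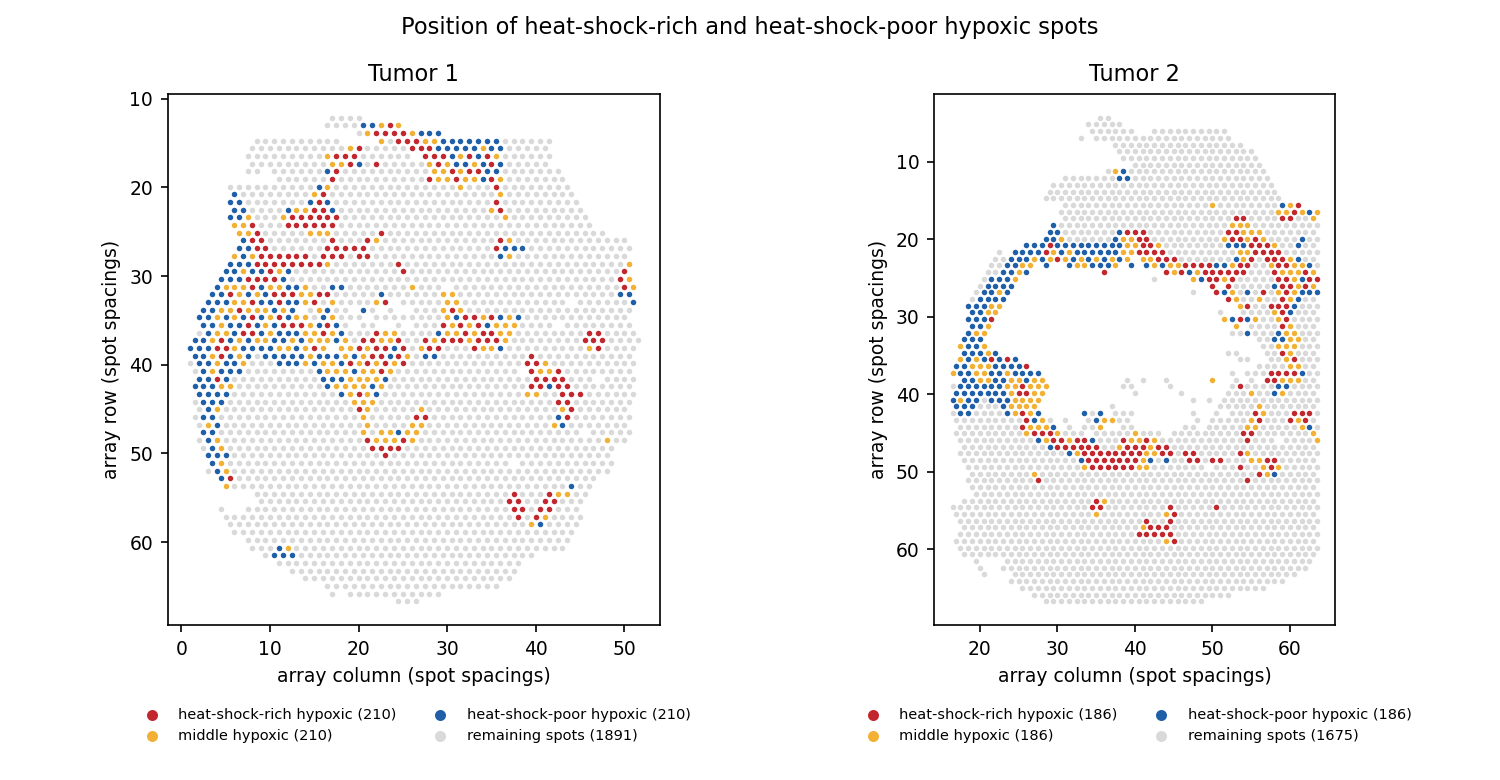
Capture spots of both sections by array row and column, coloured as heat-shock-rich, middle and heat-shock-poor hypoxic spots and remaining spots, with spots under 2000 UMIs left out. Poor spots crowd along an outer margin of each section, rich spots form patches and strips elsewhere, and in tumor 2 the hypoxic spots ring an area whose spots fell under the UMI minimum.

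The 2 groups occupied different places. Rich spots lay a median of 8 spot steps from the tissue border in tumor 1 and 14 in tumor 2, against 4 and 5.5 steps for poor spots. The middle tertile lay at 11 and 11 steps, deeper than the rich spots in tumor 1, and the remaining spots at 8 and 8. Spots of both groups neighboured their own kind. Of the hypoxic spots adjacent to a rich spot, 51.7% and 58.8% were rich, against 16.1% and 9.65% of those adjacent to a poor spot. Of the hypoxic spots adjacent to a poor spot, 51.3% and 61.8% were poor. Rich and poor spots each formed 45 connected patches in tumor 1 and 40 in tumor 2. The largest rich patches held 38 and 46 spots, and the largest poor patches 63 and 130. A low-UMI area, found from smoothed UMI totals, held 30.0% and 11.3% of rich spots, against 27.6% and 16.1% of poor spots.

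Hypoxia level and depth also differed. Median H was 30.5 and 27.1 in rich spots, against 33.3 and 30.9 in poor spots, so rich spots were slightly lower on the scale that made both groups hypoxic. The median spot had 15413 and 13674 UMIs in rich spots, against 18586 and 16034 in poor spots. Summed, the groups held 3396114 and 2566093 UMIs in rich spots of tumors 1 and 2, against 4040676 and 2649777 in poor spots. Among the 8 genes of H, which helped choose both groups and are given without a test, CA9, a carbonic anhydrase at the cell surface, stood lowest in rich relative to poor spots, at a log2 difference of -0.57. ANKRD37, a hypoxia-induced gene, stood highest at 0.41, and the other 6 lay between -0.10 and 0.26.

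Whether the trio moves as a unit was asked by splitting the hypoxic spots on 1 member and reading the others. Split by HSPA6 alone, HSPA1A averaged 207 and 501 normalised CPM in the HSPA6-high spots, against 68.5 and 101 in the HSPA6-low spots. HSPA1B averaged 433 and 875 in the HSPA6-high spots, against 173 and 234 in the HSPA6-low spots. The groups did not overlap for either gene, and edgeR's quasi-likelihood test gave log2 differences of 1.97 ± 0.09 (SE, n = 2 tumors) for HSPA1A and 1.62 ± 0.07 for HSPA1B, with adjusted p of 8.48e-103 and 3.99e-113. The SE here and below come from the fit, with the spread shared over genes, and are not the spread of the 2 tumor values. HSPA1A differed by 1.59 in tumor 1 and 2.30 in tumor 2, and HSPA1B by 1.32 and 1.90. In that split 0.965% of 11401 genes tested were called higher at an adjusted p of at most 0.05. Split by HSPA1A plus HSPA1B, HSPA6 averaged 127 and 294 in the high spots, against 14.4 and 14.6 in the low spots. Its log2 difference was 3.74 ± 0.13 by edgeR (adjusted p = 2.91e-45, n = 2 tumors), where 4.12% of 11504 genes were called higher.

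Splitting each hypoxic spot by the mean S of its adjacent spots, with its own UMIs unused, gave the same direction. HSPA6 averaged 114 and 274 normalised CPM in spots with rich surroundings, against 12.8 and 15.1 in spots with poor surroundings. HSPA1A averaged 241 and 496 in rich surroundings, against 49.5 and 51.8 in poor ones, and HSPA1B 472 and 839.7 against 123 and 149. The levels were separated in both tumors, with log2 differences of 3.66 ± 0.14, 2.74 ± 0.12 and 2.21 ± 0.08 by edgeR (SE, n = 2 tumors; largest adjusted p 7.00e-24). In this split 2.57% of 11576 genes were called higher.

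For all other genes, UMIs were summed per tumor and group and compared with edgeR's quasi-likelihood test, with tumor as a block. The trio was removed first, and the 8 genes of H were not tested. Of 11553 genes tested, 859 (7.44%) passed an adjusted p of at most 0.05: 486 (4.21%) were higher and 373 (3.23%) lower in rich spots. Of the called genes, 856 had the same sign in both tumors, as had 62.4% of all tested genes. With 4 sums the fit has 1 residual degree of freedom, and the spread was estimated jointly over genes. The p-values and SE are therefore only as good as that shared spread. DESeq2 called 28 genes higher and 25 lower on the same sums. With edgeR scaled by library size alone, 302 were higher and 613 lower, with the median of all genes at -0.068. In sums of spots, fewer cells of a type and less RNA per cell cannot be told apart.

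Most inducible heat shock genes rose. Of 26 listed, 25 were tested, and 20 rose, none fell and 5 did not pass the test; their median log2 difference was 0.47, beside -0.0017 over all tested genes. The 20 compare with the 4.21% of genes called higher. Tumor 1 gave a median of 0.36 and tumor 2 of 0.74, and 22 of the 25 had the larger difference in tumor 2, the section whose rich spots also had the higher S.

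The HSP40 co-chaperones, which deliver clients to HSP70 and start its ATP cycle, included the strongest response. DNAJB1 (ENSG00000132002, chromosome 19, 14514769 to 14560391) stood at 589.8 and 1011 CPM in heat-shock-rich spots of tumors 1 and 2, against 166 and 169.8 in heat-shock-poor spots. The groups were far apart in both sections, and the middle tertile lay between them at 256 and 442. DNAJB1 rose by 2.26 ± 0.07 on the log2 scale (SE, n = 2 tumors; edgeR adjusted p = 1.21e-211), a 4.78-fold difference. The DNAJB1 difference was 1.89 in tumor 1 and 2.65 in tumor 2. DNAJB4 stood at 31.8 and 48.3 in rich spots, against 12.4 and 12.5 in poor spots, and rose by 1.70 ± 0.18. DNAJA1 rose by 0.41, with a log2 difference of 0.09 in tumor 1 and 0.74 in tumor 2.

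HSPH1, BAG3 and HSPA8 belong to the HSP70 system. HSPH1 (ENSG00000120694, chromosome 13, 31134973 to 31162388), the HSP110 that exchanges the nucleotide of HSP70, stood at 219 and 406 CPM in rich spots, against 104 and 124 in poor spots. Both rich values exceeded both poor values, and the log2 difference was 1.46 ± 0.08 (SE, n = 2 tumors, edgeR adjusted p = 1.75e-65). It was 1.14 in tumor 1 and 1.78 in tumor 2. BAG3, which couples HSP70 to small heat shock proteins and autophagy, stood at 96.9 and 158 in rich spots, against 78.5 and 87.2 in poor spots, a log2 difference of 0.64 ± 0.10 (edgeR adjusted p = 7.34e-09). HSPA8, the constitutive HSP70, was at 1397 and 1958 in rich spots, against 1418 and 1533 in poor spots. It passed the test with a log2 difference of 0.23, but its tumor 1 levels were nearly the same in both groups (a difference of 0.04), and the call rests on tumor 2 (0.43).

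**Figure D2:**
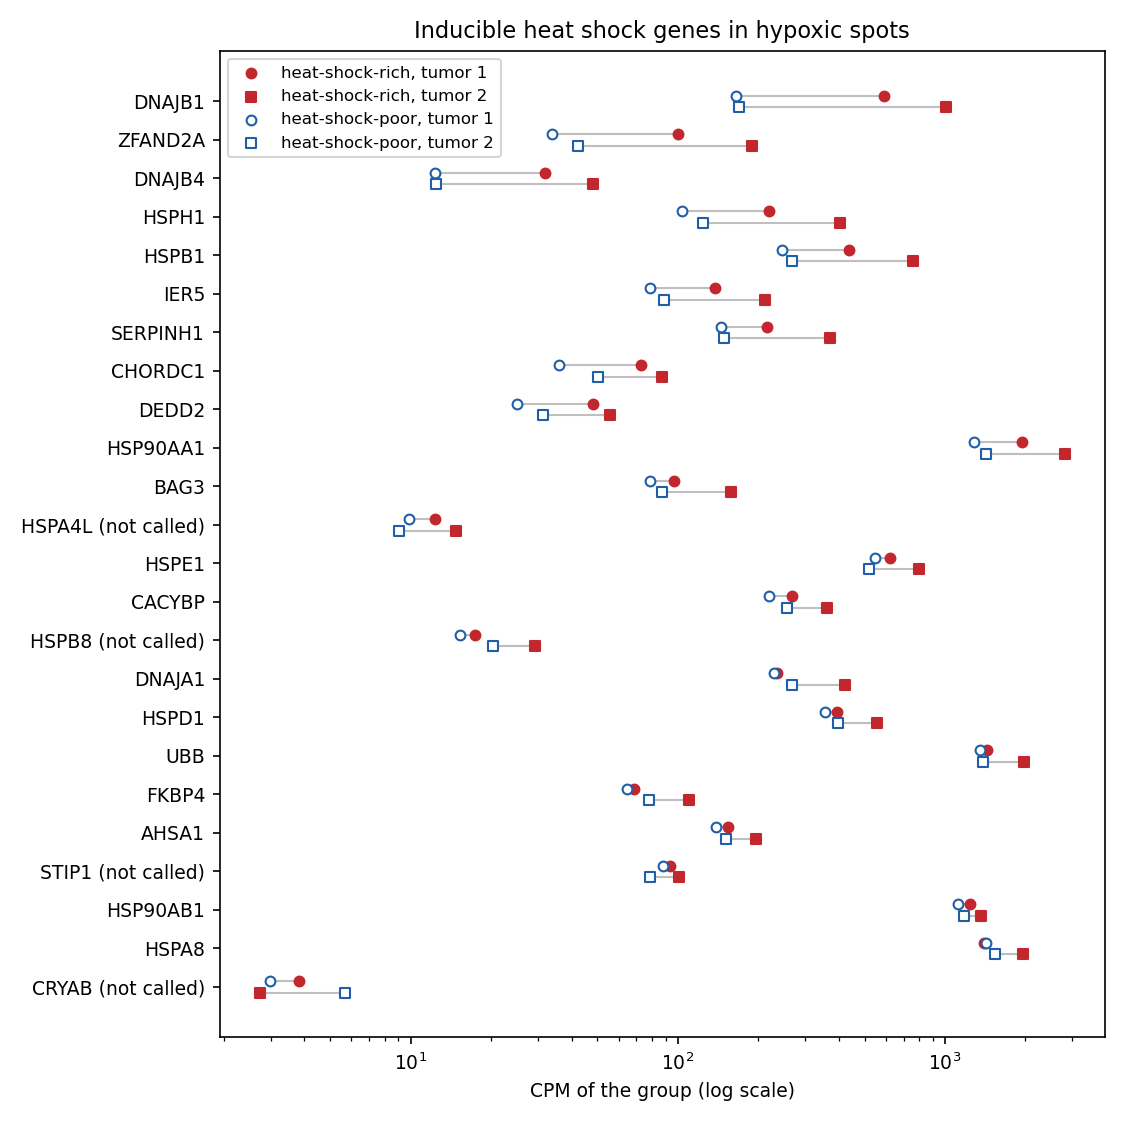
Levels of 24 tested inducible heat shock genes in CPM (log axis) in heat-shock-rich (filled) and heat-shock-poor (open) hypoxic spots of both tumors, joined by a line within each tumor. DNAJB1 and ZFAND2A lie wide apart in both tumors, HSPA8 and DNAJA1 nearly coincide in tumor 1, and CRYAB runs in opposite directions in the 2 tumors.

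ZFAND2A (ENSG00000178381, chromosome 7, 1148850 to 1160196), a stress-induced zinc finger protein that acts at the proteasome, stood at 99.8 and 190.2 CPM in rich spots, against 33.9 and 42.3 in poor spots. The groups did not overlap, and it rose by 1.93 ± 0.11 on the log2 scale (SE, n = 2 tumors; edgeR adjusted p = 1.22e-62). HSPB1, the small heat shock protein HSP27, stood at 437 and 758 in rich spots, against 246 and 268 in poor spots, and rose by 1.23 ± 0.07 (edgeR adjusted p = 5.72e-67). SERPINH1, the collagen chaperone HSP47 of the endoplasmic reticulum, rose by 1.01, while the collagens themselves fell, as given below. IER5, an early response gene that acts on HSF1, rose by 1.09, and DEDD2, a death effector domain protein, by 0.96.

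HSP90 and its co-chaperones mature kinases and receptors. HSP90AA1 (ENSG00000080824, chromosome 14, 102080742 to 102139749), the inducible HSP90, stood at 1936 and 2801 CPM in rich spots, against 1281 and 1422 in poor spots. Its lower rich value was still above its higher poor value, and it rose by 0.86 ± 0.05 (SE, n = 2 tumors; edgeR adjusted p = 6.97e-68). CHORDC1, an HSP90 co-chaperone, rose by 0.98, the immunophilin FKBP4 by 0.36, the HSP90 ATPase activator AHSA1 by 0.33 and the constitutive HSP90AB1 by 0.25. STIP1, which links HSP70 to HSP90, had a log2 difference of 0.28 and did not pass the test. The mitochondrial chaperonins HSPE1 and HSPD1 rose by 0.47 and 0.38, the ubiquitin gene UBB by 0.37 and CACYBP, a calcyclin-binding protein, by 0.46. HSPA4L (0.55), HSPB8 (0.42) and CRYAB (-0.21) did not pass either, and HSPA1L had too few UMIs to be tested.

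**Figure D3:**
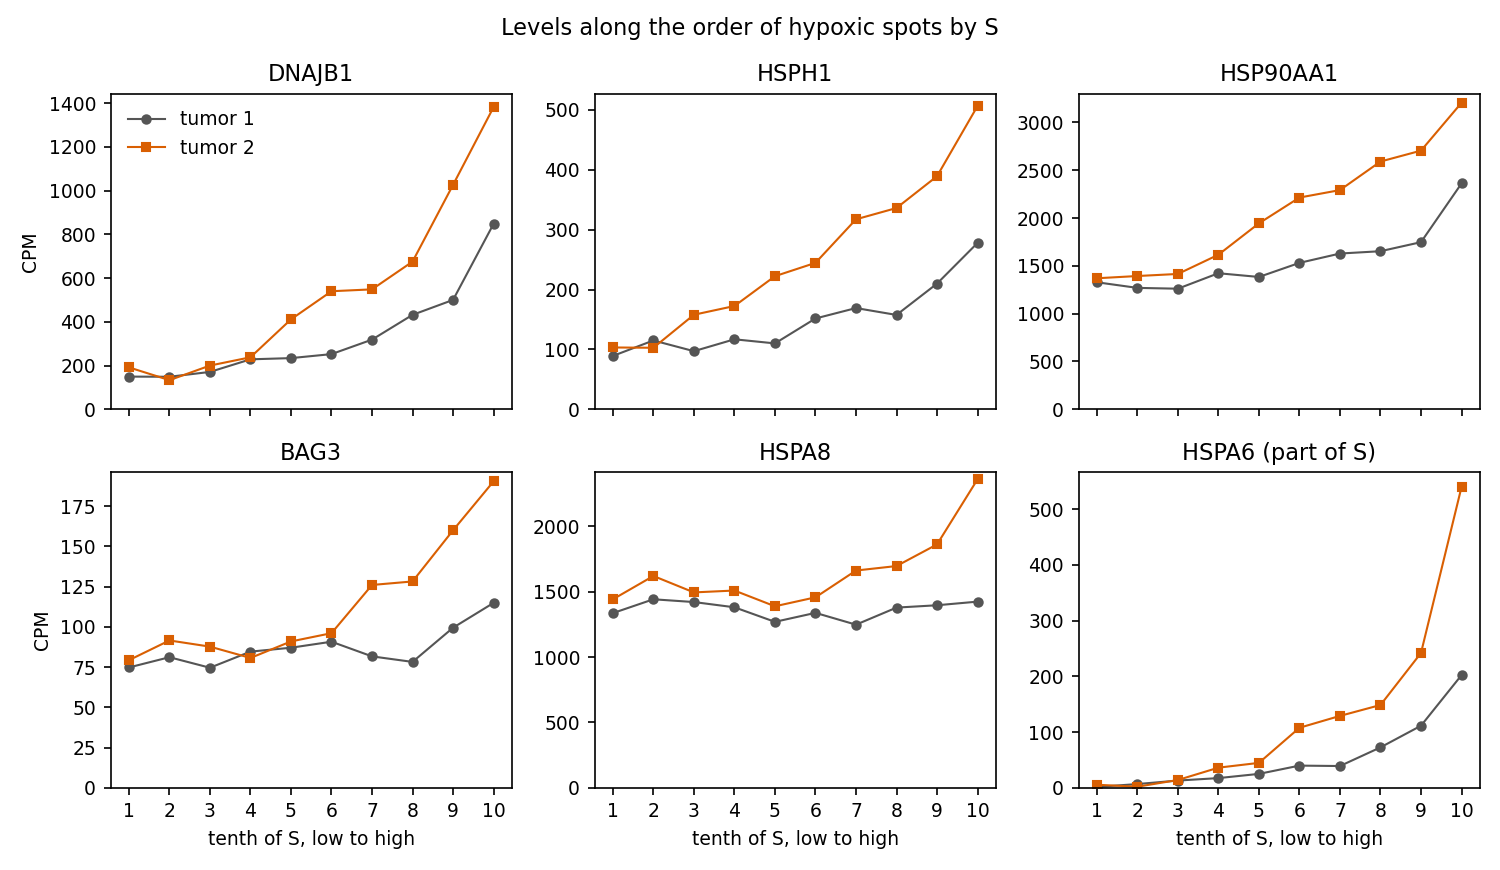
Level in CPM of DNAJB1, HSPH1, HSP90AA1, BAG3, HSPA8 and the rule gene HSPA6 in 10 equal groups of hypoxic spots ordered from low to high S, 1 line per tumor. DNAJB1 climbs to 848 CPM in tumor 1 and 1382 CPM in tumor 2, while HSPA8 in tumor 1 stays between 1248 and 1442 CPM.

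Ordered into 10 equal groups by S (63 spots each in tumor 1, 55 or 56 in tumor 2), the heat shock genes did not change in one step. From the lowest to the highest group, DNAJB1 ran from 149.6 to 848 CPM in tumor 1 and from 192 to 1382 in tumor 2. Its values in the 3 lowest groups of tumor 1 lay between 149 and 171, and those of the groups above them were all higher. HSP90AA1 ran from 1328 to 2361 in tumor 1 and from 1370 to 3205 in tumor 2. HSPA8 stood at 1336 in the lowest and 1424 in the highest group of tumor 1, and at 1442 and 2359.9 in tumor 2, where the increase lay in the upper groups. These values share the spots that S ordered and are a description.

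Position, depth and the summed share of other-cell markers moved with the split, and the heat shock result was recomputed with each matched or removed. With equal numbers of rich and poor spots at each step to the border (137 per group in tumor 1, 85 in tumor 2), 17 of 24 tested inducible genes were called. Over all genes 147 of 10366 were called higher there, and DNAJB1 differed by 2.07. Without the spots highest in markers of other cells, 19 of 25 were called, beside 213 of all 11384 genes called higher. With equal H in both groups DNAJB1 differed by 2.22, and with equal UMIs per spot by 2.25. When every spot was thinned to 2000 UMIs before S was ranked, 6 of 21 were called and DNAJB1 differed by 1.10. Only 11 of all 5873 genes were called higher after thinning. DESeq2 called 7 of 25: DNAJB1, ZFAND2A, DNAJB4, HSPH1, IER5, CHORDC1 and HSP90AA1. It called 28 of all 11553 genes higher.

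Chaperone systems outside the inducible list moved little. Beside the list counts here and below, 4.21% of all tested genes were called higher and 3.23% lower. Over all genes, border matching gave 147 higher and 85 lower of 10366, and DESeq2 28 and 25 of 11553. With S from HSPA6 alone, 109 were higher and 110 lower of 11399. Of 21 other HSP70 family members and co-chaperones tested, 2 rose and 1 fell, with a median of 0.11; HSPA5, the HSP70 of the endoplasmic reticulum, rose by 0.56 and the nucleotide exchange factor BAG1 by 0.49. Of 8 genes of the chaperonin CCT, which folds actin and tubulin, 0 passed by edgeR or by DESeq2, 1 had an unadjusted edgeR p under 0.05, and the log2 median was 0.07. Of 5 heat shock factors 1 rose, HSF2BP, which encodes a binding partner of HSF2, by 0.54; it did not pass among border-matched spots (edgeR adjusted p = 0.637, n = 2 tumors). HSF1 differed by 0.23 (edgeR adjusted p = 0.136, n = 2 tumors). Of 25 proteasome genes none rose and 2 fell, PSMA3 by 0.29 among them. Of 12 autophagy genes 2 rose, the ubiquitin-binding receptor SQSTM1 by 0.37 and GABARAPL1 by 0.67. Among border-matched spots edgeR called 0 of 12 autophagy genes (3 at an unadjusted p under 0.05), 0 of 4 heat shock factors (1) and 1 of 25 proteasome genes. DESeq2 called 0 genes of the 3 lists, with 1, 0 and 0 at an unadjusted p under 0.05.

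Of 26 genes of the unfolded protein and integrated stress response, 6 rose and none fell, led by the transcription factor ATF3 (1.26) and by PPP1R15A (0.68), which directs removal of the phosphate from eIF2α. Among border-matched spots 4 of the 26 were higher, with S from HSPA6 alone 2, and by DESeq2 0 (4 at an unadjusted p under 0.05). Of 18 oxidative stress genes 3 rose and 2 fell; the ferritin light chain FTL rose by 0.41, and SLC7A11, the cystine importer, had a log2 difference of -0.91. Of 6 tested metallothioneins, metal-binding proteins whose near-identical copies can share reads, MT1X rose by 0.45 and MT1M fell, as given below. Apoptosis and p53 target genes gave 1 higher (BAK1, 0.50) and 1 lower among 17; border-matched spots gave 0 of 16 by edgeR and DESeq2 0 of 17, with 3 and 1 at an unadjusted p under 0.05.

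**Figure D4:**
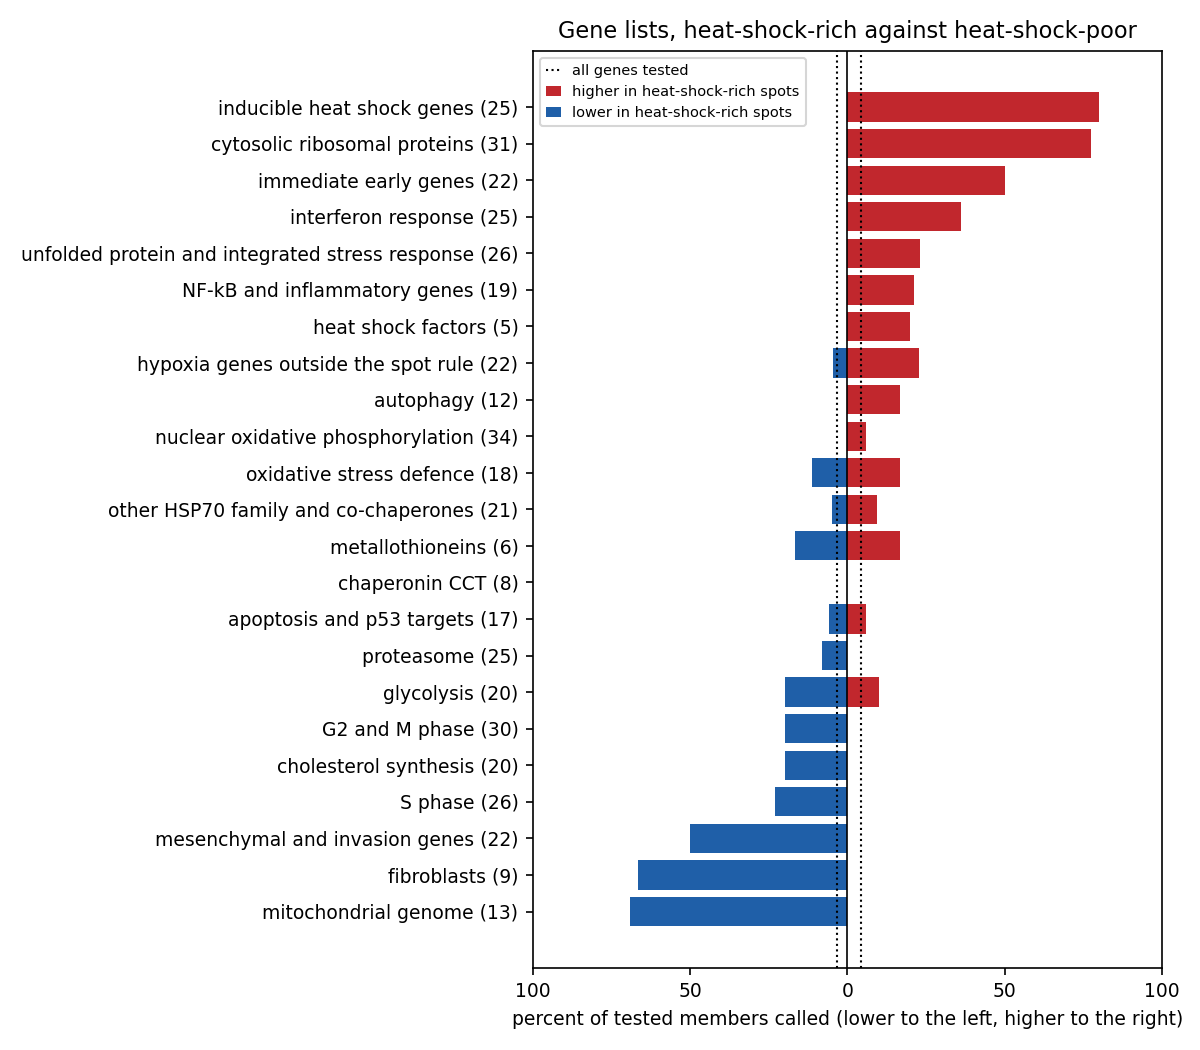
Percentage of the tested members of each gene list called higher (bars to the right of 0) or lower (bars to the left) in heat-shock-rich than in heat-shock-poor hypoxic spots; the number tested is in brackets and dotted lines mark all genes tested. Inducible heat shock genes (20 of 25) and ribosomal protein genes (24 of 31) reach furthest right, mitochondrial genome (9 of 13) and fibroblast (6 of 9) lists furthest left.

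Immediate early genes rose beside the chaperones: 11 of 22 were higher and none lower, with a median log2 difference of 0.32. FOS (ENSG00000170345, chromosome 14, 75278828 to 75282230), a subunit of the AP-1 factor, stood at 35.6 and 49.5 CPM in rich spots, against 13.6 and 10.2 in poor spots. Its groups did not overlap, and it rose by 1.82 ± 0.18 (SE, n = 2 tumors; edgeR adjusted p = 5.74e-21). FOSB rose by 1.58 and NR4A1, an orphan nuclear receptor, by 1.84. With spots matched on steps to the border, 10 of 22 were higher, and with spots high in other-cell markers also left out, 5; DESeq2 called 1. NR4A1 did not pass with border matching (edgeR adjusted p = 0.081, n = 2 tumors), and neither NR4A1 nor FOSB passed with other-cell spots also left out.

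The largest increase among the named genes was in no chaperone. CCL26 (ENSG00000006606, chromosome 7, 75769524 to 75791597), the chemokine eotaxin-3, stood at 76.9 and 144 CPM in rich spots, against 14.4 and 17.0 in poor spots. The middle tertile was intermediate, at 29.4 and 60.3, and the groups did not overlap. CCL26 rose by 2.81 ± 0.14 on the log2 scale (SE, n = 2 tumors; edgeR adjusted p = 3.28e-82), and by 2.13 among spots matched on steps to the border. Of 19 NF-kB and inflammatory genes tested 4 rose and none fell, CCL26 and the prostaglandin synthase PTGS2 (0.70) among them. Only 1 was higher among border-matched spots (17 tested), with S from HSPA6 alone, with S of adjacent spots only and by DESeq2. With H matched 4 of 17 were higher, and with UMIs matched 2 of 17. PTGS2 differed by 1.21 and passed with H matched, but did not pass among border-matched spots (edgeR adjusted p = 0.184, n = 2 tumors). Others among the 15 largest increases were RGS2, a brake on G protein signalling (1.45), the small GTPases RRAD (1.23) and RHOB (1.01), the adhesion scaffold NEDD9 (1.15) and the vasopressin-induced gene AVPI1 (1.19).

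Hypoxia genes that the rule did not use were mixed. Of 22 tested, 5 rose and 1 fell, with a median of 0.07. CITED2, a hypoxia-induced inhibitor of HIF, rose by 0.85, the lipid droplet gene HILPDA by 0.81 and the alpha-arrestin ARRDC3 by 0.63. Of 20 glycolysis genes 2 rose and 4 fell: the glucose transporter SLC2A3 rose by 0.63 and PFKFB3, which makes the activator of phosphofructokinase, by 0.32, while SLC16A3, the lactate exporter, had a log2 difference of -0.36. Among spots matched on H, 8 of the 22 hypoxia genes were higher and 1 lower (median 0.17), and 2 of the 20 glycolysis genes were higher and 1 lower (median 0.01). With S of adjacent spots only, 3 hypoxia genes were higher and 4 lower (median -0.06), and 1 glycolysis gene was higher and 5 lower. With S from HSPA6 alone, 1 hypoxia gene was higher and 2 were lower (median -0.08). Over all genes, 418 were higher and 316 lower of 11048 with H matched, and 302 and 267 of 11573 with adjacent spots only.

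Growth and respiration genes gave small shifts in many members. Of 31 cytosolic ribosomal protein genes 24 rose and none fell, with a median of 0.19; RPL4 rose by 0.29 and RPS2 by 0.28. The count depends on the fit: among border-matched spots 6 were higher, and without spots high in other-cell markers 0 of 31 passed by edgeR (17 at an unadjusted p under 0.05). By DESeq2 0 of 31 passed, with 15 at an unadjusted p under 0.05. S phase genes gave 6 lower of 26 (median -0.23; the replication licensing regulator DTL -0.65) and G2 and M phase genes 6 lower of 30 (median -0.24; the proliferation antigen MKI67 -0.48), with none higher in either list by edgeR. Among border-matched spots 4 S phase genes and 1 G2 and M phase gene were lower. DESeq2 called 0 in either list. In the main edgeR fit, which called 6 and 6, 10 and 15 had an unadjusted p under 0.05.

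Transcripts of the mitochondrial genome fell in 9 of 13 cases and rose in none, with a median log2 difference of -0.34. MT-CYB of respiratory complex III, at 783 and 553 CPM in rich spots, against 1150.3 and 874 in poor spots, was lower in both tumors. It fell by 0.54 on the log2 scale, and MT-CO3 and MT-CO1 of complex IV fell by 0.52 and 0.49. Nuclear genes of the same respiratory complexes gave 2 higher and none lower of 34, with SDHD of complex II higher by 0.42. Over all tested genes 4.21% were called higher and 3.23% lower, so this count is near the general share. Among border-matched spots 10 of the 13 mitochondrial transcripts were lower, and DESeq2 called 5 lower. Mitochondrial transcripts made up 1.76% and 1.19% of the summed UMIs of rich spots, against 2.37% and 1.71% of those of poor spots.

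Interferon-induced genes gave 9 higher and none lower of 25 (median 0.29), led by IFI27 (0.74), the antiviral GTPase MX1 (0.70) and IFI6 (0.61); 4 were higher among border-matched spots, 3 among spots matched on H and 1 by DESeq2. Of 20 cholesterol synthesis genes 4 fell, MSMO1 by 0.43, and none rose. Of 4 nuclear-retained RNAs, NEAT1 rose by 0.66 and MALAT1 by 0.46.

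The genes lowest in heat-shock-rich spots were mostly matrix and stromal genes. COL3A1 (ENSG00000168542, chromosome 2, 188974373 to 189012746), a fibrillar collagen, stood at 112 and 36.2 CPM in rich spots, against 668 and 577 in poor spots. COL1A1 (ENSG00000108821, chromosome 17, 50184101 to 50201631) stood at 164 and 96.6 in rich spots, against 764 and 766 in poor spots. Every rich value was below every poor value, and edgeR gave log2 differences of -3.01 ± 0.08 and -2.48 ± 0.07 (SE, n = 2 tumors; adjusted p = 7.39e-270 and 9.87e-232). COL1A2 (-2.49), COL5A2 (-1.89), COL12A1 (-1.40), the matrix glycoprotein SPARC (-1.95), the procollagen processing enhancer PCOLCE (-1.48), the microfibril gene MFAP5 (-2.61), the elastic fibre gene EFEMP2 (-2.51) and smooth muscle actin ACTA2 (-1.77) also fell. Of the 9 tested members of a fibroblast marker list 6 fell and none rose, with a median of -1.48, and of 22 mesenchymal and invasion genes 11 fell and none rose, TNC (-1.06) and CDH11 (-0.70) among them. Among border-matched spots 3 of 7 fibroblast markers and 1 of 22 mesenchymal genes were lower.

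**Figure D5:**
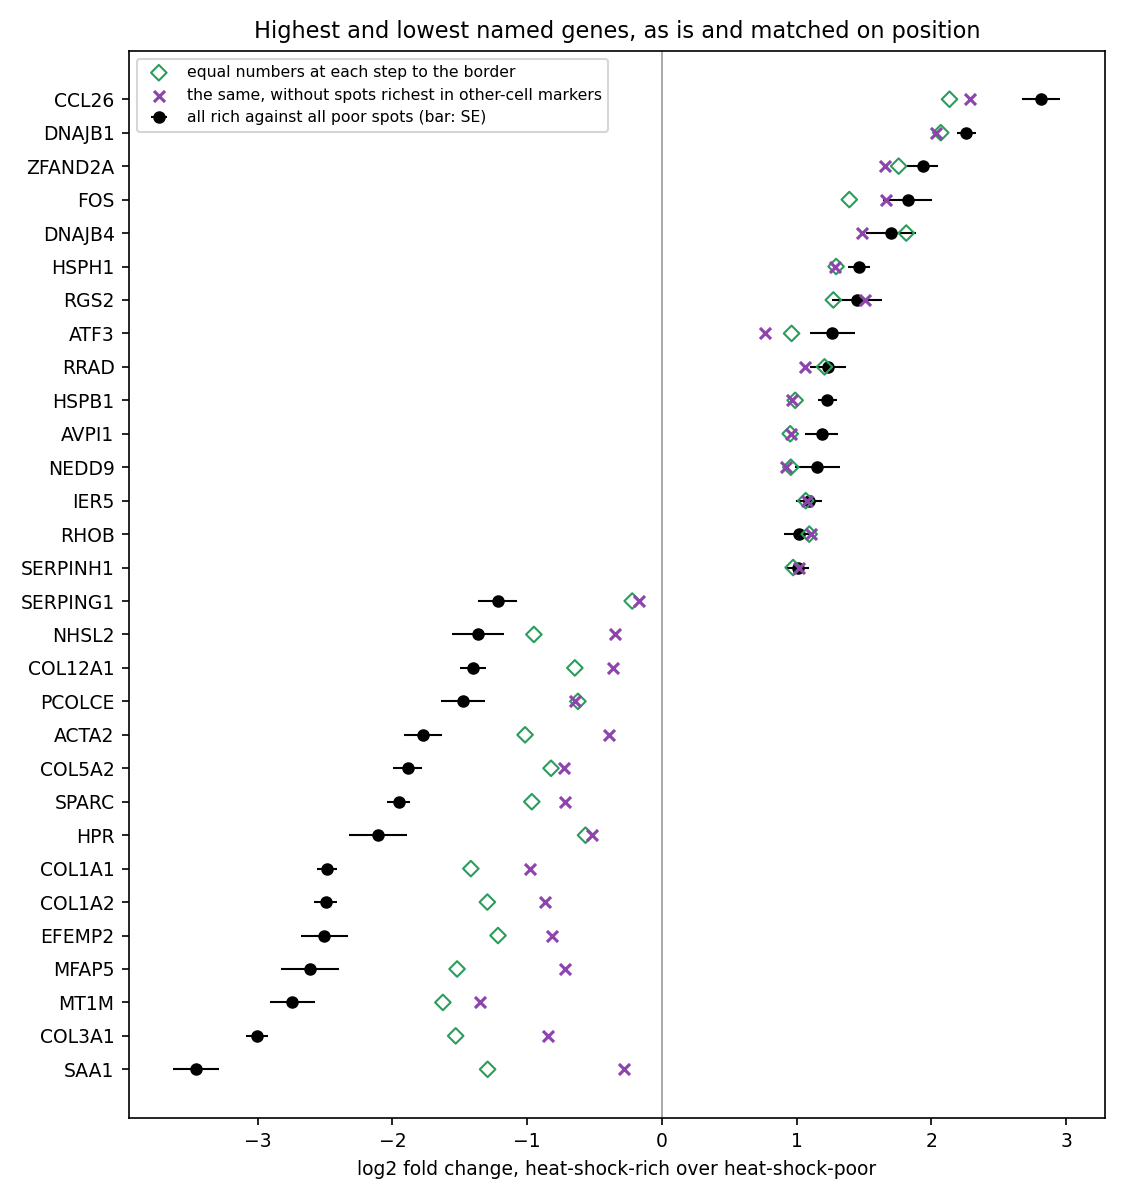
Log2 fold change, heat-shock-rich over heat-shock-poor, of the 15 highest and 15 lowest named genes over all spots (black points, bars are SE), with equal numbers of spots at each step to the border (diamonds), and likewise without spots richest in other-cell markers (crosses). With border matching CCL26 lies at 2.13 and COL3A1 at -1.53, and without spots richest in other-cell markers as well SAA1 lies at -0.29. The other-cell markers include COL1A1, COL1A2, COL3A1 and PCOLCE.

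Among markers of other cells, the summed fibroblast markers moved with these genes in both tumors, and their list includes COL1A1, COL1A2 and COL3A1. All other-cell markers together made up 0.140% and 0.122% of the summed UMIs of rich spots, against 0.309% and 0.259% of those of poor spots. Summed over 14 fibroblast markers, rich spots held 464 and 231 CPM in tumors 1 and 2 (13 and 11 markers above 0; DPT at 0 in both, DCN and FAP at 0 in tumor 2), against 2159.5 and 1751 in poor spots (14 and 13 above 0). Endothelial markers summed to 104 and 97.8 in rich spots, against 97.5 and 106 in poor spots, with CLDN5 and EMCN at 0 in all 4 sums. Macrophage and granulocyte markers summed to 299 and 246 in rich spots, against 322 and 242 in poor spots, with CD163 at 0 throughout. Of its 4 tested members 1 was called higher and 2 lower: CD68, named after its value was seen, rose by 0.26, C1QB had a log2 difference of -1.84 and APOE of -0.66. APOE turned to 0.12 among border-matched spots. Red blood cell markers summed to 37.1 and 49.9 in rich spots, against 31.9 and 13.2 in poor spots; HBB rose by 0.90, with 0.30 in tumor 1 and 1.95 in tumor 2, and HBD by 1.07. With H matched, HBB differed by -0.41 and did not pass the test. The matrix counted only human genes, so mouse RNA that aligned to them cannot be told apart from tumor RNA.

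Among border-matched spots the log2 differences of the collagens were nearer 0: -1.53 for COL3A1 and -1.42 for COL1A1, and -0.85 and -0.98 once the spots highest in other-cell markers were also left out. Both collagens passed edgeR's test there. The other-cell spots were removed before H and S were ranked, so these groups were chosen anew (150 spots per group in tumor 1, 86 in tumor 2). They are not a subset of the border-matched spots. COL1A1, COL1A2, COL3A1 and PCOLCE are themselves among the other-cell markers. Leaving out spots rich in these markers therefore brings their differences, and those of genes sharing their spots, nearer 0 by construction. Of the 15 highest named genes, 15 passed with border matching and 15 with other-cell spots also left out. Of the 15 lowest, 12 and 6 passed. The lowest that did not pass with border matching were HPR (-0.57), PCOLCE (-0.62) and SERPING1 (-0.22). In those newly chosen groups 80 of 10486 genes were higher and 36 lower, and 13 of 24 tested inducible heat shock genes were called.

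SAA1, an acute-phase protein, had the lowest log2 difference of the named genes. It stood at 10.9 and 5.85 CPM in rich spots, against 54.2 and 169 in poor spots, a log2 difference of -3.46 ± 0.17 (SE, n = 2 tumors; edgeR adjusted p = 6.93e-90). The poor values were far apart between tumors, but both exceeded both rich values. Matched on the border it differed by -1.29, and with other-cell spots also left out by -0.29 (edgeR adjusted p = 0.819, n = 2 tumors). The metallothionein MT1M had a log2 difference of -2.74 (63 and 3 UMIs in rich spots, against 343 and 174 in poor spots). Its difference was -1.35 with border matching and other-cell spots left out. HPR, a haptoglobin-related gene (-2.11), NHSL2 (-1.36) and the complement inhibitor SERPING1 (-1.22) completed the 15 lowest.

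The same split was made in the remaining spots, and the difference between the 2 splits was tested as an interaction. Of 13523 genes tested, 73 (0.54%) were called: 12 (0.0887%) with a higher and 61 (0.451%) with a lower rich-minus-poor difference in hypoxic spots. DNAJB1 stood at 589.8 and 1011 in hypoxic rich spots, against 166 and 169.8 in hypoxic poor spots; in remaining spots it stood at 418 and 432 in rich, against 129.9 and 154 in poor. It was higher in rich spots of both classes, and its log2 difference was larger by 0.64 ± 0.15 in hypoxic spots (SE, n = 2 tumors; edgeR adjusted p = 0.0439), with 0.16 in tumor 1 and 1.11 in tumor 2. Of 26 inducible genes 5 were called this way and none the other way: CHORDC1 (0.67), IER5 (0.64), DNAJB1, HSPA8 (0.50) and UBB (0.46).

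HSPA8 was also called. It stood at 1397 and 1958 CPM in hypoxic rich spots, against 1418 and 1533 in hypoxic poor spots, and at 1604 and 1746 in remaining rich spots, against 1987 and 2161 in remaining poor spots. In remaining spots the rich group was therefore the lower one in both tumors. The genes with the lowest interactions were SAA1 (-2.59), MT1M (-2.15), DEPP1 (-1.57), COL3A1 (-1.47), COL1A2 (-1.37), COL1A1 (-1.33) and HPR (-1.24); MX1 was highest at 1.16.

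Hypoxia level moved with the split in the remaining spots. There, median H was 18.9 and 18.2 in rich spots, against 10.5 and 6.50 in poor spots, the opposite order from the hypoxic class. Of 22 hypoxia genes outside the rule 13 had a lower rich-minus-poor difference in hypoxic spots, and of 20 glycolysis genes 9, with none higher by edgeR in either list. With H matched in both classes, an alternative chosen after the data were seen, 2 genes were called higher (IER5 and CHORDC1) and 8 lower (SAA1, COL3A1, COL1A2, COL1A1, SPARC, ACTA2, COL5A2 and COL12A1). Without the tumor block none of the 13523 genes was called by edgeR, and 657 had an unadjusted p under 0.05.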

How the data were processed

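Visium UMI counts per gene and spot were deposited by the authors as unnormalised matrices, from Space Ranger (version 1.3.0 in the file headers) on hg38, the build in the submitters' processing notes. Array positions came from the deposited coordinate lists. The 2 libraries held 58661164 and 39736292 UMIs over 36601 human features and shared 1627 barcodes, which are array positions. The spots and gene lists were chosen with earlier results of these data known. UMIs were summed per tumor and group and fitted with edgeR 4.0.16 (limma 3.58.1, R 4.3.3): TMM, filterByExpr, glmQLFit and glmQLFTest, tumor as a block because both groups come from the same section, Benjamini-Hochberg over all tested genes. Levels are CPM, counts per 1000000 UMIs of a group. For single tumors, log2 values used 2 as prior count. Named genes were the 15 highest and 15 lowest called genes with a mean of at least 20 CPM and 1 sign in both tumors, all tested inducible heat shock genes, up to 3 of each other list and the 8 largest interactions. The fit was tested on simulated data: of genes changed by 1 on the log2 scale 100% were called (11380 genes), and 63% of those changed by 0.5. There were 6 false calls. For the interaction 95% and 38% were called, with 5 false calls. The simulated tumors shared means, effects and a common dispersion, so effects that differ between tumors were not covered. Alternatives included DESeq2 1.42.0, other thresholds, matching on H, UMIs or steps to the border, and splits by other genes. 1 tested member of the inducible list is counted but not reported here by name. No doublet caller was run, since a spot holds several cells. Of 568 named or listed genes, 553 matched RefSeq by symbol. Python 3.11.15 with numpy 2.4.6, pandas 2.3.3, scipy 1.17.1 and matplotlib 3.10.9 was used for the rest.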

Additional observations from a re-analysis of the deposited data

Results flagged for a closer look

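The heat shock split differed between hypoxic and remaining spots, by the interaction test of edgeR, for 13 named genes. The log2 difference between heat-shock-rich and heat-shock-poor spots was lower in hypoxic than in remaining spots for SAA1 (-2.59), MT1M (-2.15), DEPP1 (-1.57), COL3A1 (-1.47), COL1A2 (-1.37), COL1A1 (-1.33) and HPR (-1.24). It was higher in hypoxic spots for MX1 (1.16), CHORDC1 (0.67), IER5 (0.64), DNAJB1 (0.64), HSPA8 (0.50) and UBB (0.46). DEPP1, a gene induced by hypoxia and FOXO factors, stood at 98.6 and 60.8 CPM in hypoxic rich spots, against 105 and 79.6 in hypoxic poor spots, and at 44.6 and 26.7 in remaining rich spots, against 17.3 and 9.63 in remaining poor spots. With H matched in both classes, its difference was -0.41 and did not pass the test. MX1 was at 19.4 and 15.2 in hypoxic rich spots, against 13.9 and 7.93 in hypoxic poor spots, and at 26.7 and 24.97 in remaining rich spots, against 43.7 and 29.2 in remaining poor spots. Of the 13 genes, SAA1, COL3A1, COL1A2, COL1A1, IER5 and CHORDC1 passed the test with H matched.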

How the results depend on the processing

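Against 486 genes higher and 373 lower, the count of genes higher in rich spots was 28 by DESeq2, 109 with S from HSPA6 alone, 302 with S of adjacent spots only, 278 with at least 500 UMIs per spot, 302 with library size alone, 147 with spots matched on steps to the border, 213 without spots high in other-cell markers, 80 with both (chosen after the data were seen), 240 in the top 20% of H and 11 after thinning. The count lower was 25 by DESeq2, 110 with HSPA6 alone, 246 with at least 500 UMIs, 613 with library size alone, 243 matched on H and UMIs, 85 matched on the border, 141 without other-cell spots, 36 with both, 185 in the top 20% of H and 12 after thinning. Without the tumor block, the split gave 60 higher and 51 lower, and the interaction 0 and 0; the replicate block changed no call of the rule genes. Other interaction counts, against 12 higher and 61 lower, were 3 and 22 by DESeq2, 2 and 8 with H matched, 4 and 27 with median splits of S, 27 and 94 without the filter on low counts, and 15 and 11 with the bottom quartile of H as remaining spots. With 1 tumor left out no test is possible, since 1 sum per group is left. Of 90 named genes, 13 passed in every test run in which they were tested: CCL26, CHORDC1, COL1A1, COL1A2, COL3A1, COL5A2, DNAJB1, DNAJB4, FOS, HSP90AA1, HSPH1, SPARC and ZFAND2A. Signs turned for CRYAB (0.11 with HSPA6 alone, 0.019 in the top tertile of H, -0.82 without replicate 1 and 0.37 without replicate 2, single tumors, 0.077 without the low-UMI area), APOE (0.12 border-matched, 0.14 without other-cell spots, 0.41 with both), HBB (-0.26 with S averaged over adjacent spots, -0.20 with HSPA6 alone, -0.24 with adjacent spots only, -0.41 matched on H, -0.22 with border and other cells), HBD (-0.11 with HSPA6 alone), and after thinning PPP1R15A (-0.029) and IFI6 (-0.11). APOE, HBB and HBD are themselves among the other-cell markers. The cause was not tested. With 1 mismatch allowed, the promoter element was in 6.24% of windows.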
